A study of Mus musculus with 15 samples.

Results

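Integrins and laminins were followed as one module in mouse pancreas after cerulein: genes with an integrin alpha symbol (Itga), an integrin beta symbol (Itgb) or a laminin chain symbol (Lama, Lamb, Lamc) in the RefSeq naming of the probes. The rule used symbols only and no measured value. The genes reported here are 34 of the 20660 genes with a named probe: 16 integrin alpha chains, 8 integrin beta chains and 10 laminin chains. Of these, 29 were measured (20 integrins and 9 laminins), meaning that a probe was well above background on at least 3 of the 15 arrays. The other 5, Itga2, Itga8, Itgad, Itgb8 and Lama1, did not pass that filter, and no probe was matched to Itga10 and Itgae.

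Whole pancreas RNA of male C57BL/6J mice was hybridised to 1-colour Agilent arrays, 1 array per animal. Wild type (WT) mice received saline (n = 4) or cerulein (n = 4), and transgenic (TG) mice received saline (n = 3) or cerulein (n = 4). Cerulein is a cholecystokinin analogue that overstimulates the acinar cell and induces acute pancreatitis. All mice were fasted for 18 h and given 1 intraperitoneal injection of saline alone or of 50 µg/kg cerulein in saline, and were killed 3 h later. The arrays of saline mice are nevertheless labelled 0 h. The series title ties the transgenic line to betacellulin, a ligand of the ERBB receptors, and to ERBB4. The labels of the arrays say only that the animals are transgenic, and the promoter of the transgene, the number of founder lines and the age of the animals are not given in the sources used here.

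Integrins are receptors made of 1 alpha and 1 beta chain that span the plasma membrane. Outside the cell they bind matrix proteins or counter-receptors, and inside they connect through talin, kindlin and vinculin to actin. Laminins are trimers of 1 alpha, 1 beta and 1 gamma chain that build the basement membrane, the sheet of matrix on which acinar, duct and endothelial cells rest, and several integrins are laminin receptors. In the pancreas they hold epithelial cells to that sheet, and their expression is known to shift when epithelium is injured or remodelled.

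The acinar identity of the tissue was plain in the arrays: the summed linear level of 10 acinar markers, relative to the array's 75th percentile, was 14400 to 24600 after saline and 8670 to 19300 after cerulein in WT, and 13200 to 19800 and 6930 to 14000 in TG, and all 10 passed the filter. Of the 10, 9 had a lower mean after cerulein in each genotype, with a median difference over the list of -0.77 (log2) in WT and -0.69 in TG (-0.25 and -0.33 with slide in the model); the part of this shift in the results below was not tested. Between 54.9% and 76.0% of probes per array were well above background, and the 75th percentile of the signal ranged from 152 to 529 intensity units. The arrays came from 3 slides, each scanned in its own session. Slide 2 held cerulein arrays only, WT replicates 11 and 12 and TG replicate 16, so the comparisons with saline are also given within slides 1 and 3 for the integrins that the results turn on.

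The upstream sequences of 3 of the 4 integrin genes called higher in both genotypes are shown here because the genes moved together in the main fit. No upstream sequence was available for Itga6. For Itga5, 1 of the 3 shown, the difference turned slightly negative with normexp background correction. Each is the 250 bases before the RefSeq start on GRCm38.p6, written 5′ to 3′ on the strand of the gene, with matches to the searched motifs in capitals. Itgb6 has 2 starts in the table, at chr2:60722604-60722853 and chr2:60673694-60673943, both on the minus strand. Itga5 is at chr15:103366792-103367041 on the minus strand, and Itgb1 at chr8:128685404-128685653 on the plus strand.
Itgb6, start 1: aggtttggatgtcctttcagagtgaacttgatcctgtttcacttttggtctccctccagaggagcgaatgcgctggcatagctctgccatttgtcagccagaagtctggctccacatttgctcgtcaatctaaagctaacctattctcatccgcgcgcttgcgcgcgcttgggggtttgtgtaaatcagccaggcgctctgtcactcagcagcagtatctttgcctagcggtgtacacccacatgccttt
Itgb6, start 2: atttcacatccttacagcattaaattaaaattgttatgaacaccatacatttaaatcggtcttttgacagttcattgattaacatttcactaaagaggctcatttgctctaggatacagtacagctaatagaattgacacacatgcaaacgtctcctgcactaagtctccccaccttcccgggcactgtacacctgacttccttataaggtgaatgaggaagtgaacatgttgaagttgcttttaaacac
Itga5: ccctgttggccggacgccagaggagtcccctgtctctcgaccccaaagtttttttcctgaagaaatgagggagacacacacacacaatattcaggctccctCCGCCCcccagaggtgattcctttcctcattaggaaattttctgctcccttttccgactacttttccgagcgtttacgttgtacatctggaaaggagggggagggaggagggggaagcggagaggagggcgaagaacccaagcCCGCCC
Itgb1: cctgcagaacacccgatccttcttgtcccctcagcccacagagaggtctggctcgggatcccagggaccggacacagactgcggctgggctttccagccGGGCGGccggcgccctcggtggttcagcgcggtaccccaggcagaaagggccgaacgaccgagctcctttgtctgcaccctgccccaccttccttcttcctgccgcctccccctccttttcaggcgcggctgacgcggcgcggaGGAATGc

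Both strands were searched for 6 motifs. They included the AP-1 site TGANTCA, the cyclic AMP response element TGACGTCA, the TEAD site GGAATG, the GC box GGGCGG and the ETS core CCGGAA. The serum response element was searched in 1 fixed spelling, and its other spellings were not searched. The 2 Itgb6 windows held none of the searched letters. Whether they hold another spelling of the serum response element was not tested. The Itga5 window held 2 GC boxes on the opposite strand, read as CCGCCC, and the Itgb1 window held 1 TEAD site and 1 GC box. The table had 26 such windows for 23 integrin and laminin genes, 22 of them on the array. The GC box occurred in 9 of the 26 windows and in 32.7% of the 32851 windows in the table. The TEAD letters occurred in 3 of 26 against 12.6%, the AP-1 letters in 1 of 26 against 6.75%, and the ETS core in 1 of 26 against 12%. The cyclic AMP element occurred in none of the 26, against 1.55% of the table. The searched spelling of the serum response element also occurred in none of the 26, against 0.0609%. How often that element occurs in any spelling was not tested.

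The first question was which receptor and matrix genes had changed 3 h after cerulein. In wild type pancreas 4 integrin chains rose and no member was called lower: Itgb6, Itga6, Itgb1 and Itga5, whose difference turned slightly negative with normexp background correction. In transgenic pancreas the same 4 rose and again none was called lower, although other settings, given below, did call members lower. Calls were made at an adjusted p below 0.05 in limma, with Benjamini-Hochberg adjustment over 17338 genes. The background of such calls was 5.64% of genes higher and 8.35% lower in wild type, and 4.78% higher and 3.41% lower in transgenic mice. So 4 of 29 members were called higher in each genotype, and none lower. By range, 4 members lay higher and 2 lower in each WT cerulein array than in any WT saline array, against 7.35% and 10.1% of genes, and 5 higher and 2 lower in TG, against 9.95% and 11.6%. The median difference over the 29 members was -0.07 (log2) in wild type and -0.0073 in transgenic mice, beside -0.06 in each comparison over all genes. Levels below are log2 signal minus the log2 of the array's 75th percentile, and a difference is cerulein minus saline on that scale.

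**Figure D1:**
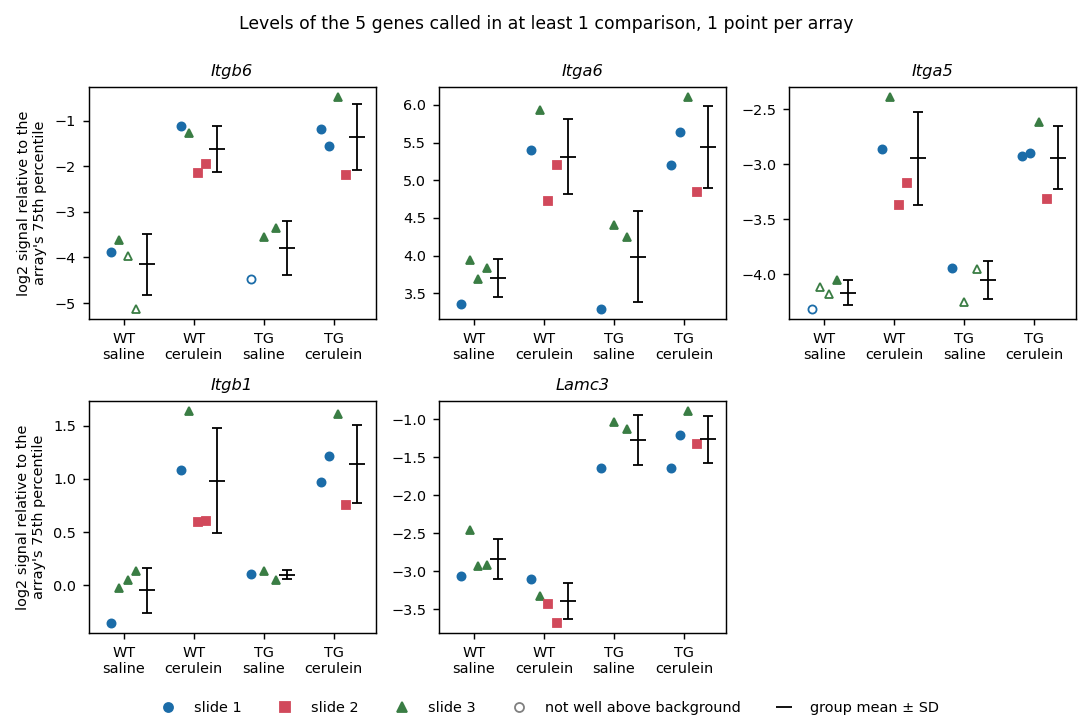
Level of each of the 5 genes called in at least 1 comparison, 1 point per array, as log2 signal relative to the array's 75th percentile (vertical axis), in the 4 groups (horizontal axis). Point shape marks the slide, open points were not well above background, and the bars give the group mean ± SD. Itgb6, Itga6, Itga5 and Itgb1 lie higher in each cerulein array than in any saline array of the same genotype (for Itga5 the difference of means turned slightly negative with normexp background correction), while Lamc3 separates the genotypes.

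Itgb6 encodes the integrin beta chain that pairs with the alpha v chain on epithelial cells and activates latent TGF-beta. Its level was -3.88, -3.62, -3.97 and -5.12 in the 4 WT saline arrays and -1.12, -1.27, -2.15 and -1.95 in the 4 WT cerulein arrays. In TG mice it was -4.48, -3.54 and -3.37 after saline and -1.19, -1.56, -0.49 and -2.20 after cerulein. Each cerulein array was above each saline array of its genotype. The signal after saline was close to the limit of detection, well above background on 2 of 4 WT and 2 of 3 TG arrays, and on all 8 arrays after cerulein. The difference was 2.53 ± 0.41 (SE) in WT (5.76-fold, limma adjusted p = 0.00105) and 2.44 ± 0.45 in TG (5.42-fold, adjusted p = 0.00322).

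Within slides the Itgb6 difference was 2.76 on slide 1 and 2.96 on slide 3 in WT, and 3.1 and 2.97 in TG. A further Itgb6 probe was well above background on no saline array, on 2 of 4 WT and on 1 of 4 TG cerulein arrays, so no difference is given for it. With normexp background correction, which adds an offset to each signal, the call was lost in both genotypes: the difference was 0.633 (adjusted p = 0.0866) in WT and 0.759 (adjusted p = 0.0823) in TG.

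Itga6 encodes the alpha chain of laminin receptors, paired either with the beta chain of Itgb1 or with that of Itgb4, the hemidesmosomal integrin. Its level was 3.36, 3.94, 3.69 and 3.83 in WT saline arrays and 5.40, 5.93, 4.72 and 5.21 in WT cerulein arrays. In TG mice it was 3.29, 4.41 and 4.25 after saline and 5.20, 5.64, 6.10 and 4.84 after cerulein. The groups did not overlap in either genotype, and Itga6 was well above background on all 15 arrays. The difference was 1.61 ± 0.33 in WT (3.05-fold, limma adjusted p = 0.00484) and 1.46 ± 0.36 in TG (2.76-fold, adjusted p = 0.0191). Within slides 1 and 3 it was 2.04 and 2.11 in WT and 2.13 and 1.78 in TG. The TG call was lost without TG saline replicate 2 (1.12, adjusted p = 0.0916) or TG cerulein replicate 14 (1.40, adjusted p = 0.0585), and with only the groups compared in the fit (adjusted p = 0.065).

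Itga5 encodes the alpha chain of the classic fibronectin receptor, whose partner is the chain of Itgb1. Its level was -4.31, -4.12, -4.18 and -4.05 in WT saline arrays and -2.86, -2.39, -3.37 and -3.17 in WT cerulein arrays. In TG mice it was -3.94, -4.25 and -3.96 after saline and -2.92, -2.90, -2.62 and -3.32 after cerulein. It was well above background on 1 of 4 WT and 1 of 3 TG saline arrays and on all 8 cerulein arrays, and the groups did not overlap. The measured difference was 1.22 ± 0.23 in WT (limma adjusted p = 0.0025) and 1.11 ± 0.24 in TG (adjusted p = 0.0104), and its size rests on saline signals mostly near background. Within slides 1 and 3 it was 1.46 and 1.73 in WT and 1.03 and 1.49 in TG. With normexp background correction the direction turned, to -0.11 (adjusted p = 0.683) in WT and -0.02 (adjusted p = 0.963) in TG. Without TG saline replicate 3 the TG call was lost (1.01, adjusted p = 0.0691), as it was with quantile normalization (1.02, adjusted p = 0.0732).

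Itgb1 encodes the beta chain shared by most matrix-binding integrins. Its partners include the chains of Itga1, Itga3, Itga5, Itga6, Itga7, Itga9 and Itga11. The Itgb1 level was -0.35, -0.03, 0.06 and 0.13 in WT saline arrays and 1.09, 1.64, 0.60 and 0.61 in WT cerulein arrays. In TG mice it was 0.11, 0.14 and 0.06 after saline and 0.97, 1.21, 1.61 and 0.76 after cerulein. No saline array reached the lowest cerulein array of its genotype. The difference was 1.03 ± 0.25 in WT (2.04-fold, limma adjusted p = 0.0147) and 1.04 ± 0.27 in TG (adjusted p = 0.029). Within slides 1 and 3 it was 1.44 and 1.59 in WT and 0.98 and 1.51 in TG. A further Itgb1 probe gave 0.79 ± 0.31 in WT (adjusted p = 0.127 over all kept probes) and 0.92 ± 0.33 in TG (adjusted p = 0.137), with overlapping groups.

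The Itgb1 call in TG mice was lost when TG saline replicate 2, 3 or 4, or TG cerulein replicate 14 or 15, was left out, with differences of 0.88 to 1.06 and adjusted p of 0.0653 to 0.109 in limma. It was also lost in TG with the mean of the gene's kept probes (0.977, adjusted p = 0.0523). With only the groups compared in the fit it was lost in both genotypes (adjusted p = 0.0504 in WT and 0.056 in TG). Scaling to the array's median in place of its 75th percentile also ended the calls of Itga6, Itga5 and Itgb1 in both genotypes, with differences of 0.84 to 1.43, and left Itgb6 as the only member called.

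Lama3 and Lamb3, which encode an alpha and a beta chain of epithelial laminin, were not called after cerulein. The Lama3 difference was 0.07 ± 0.22 in WT and -0.02 ± 0.24 in TG, and that of Lamb3 was 0.01 ± 0.37 and 0.04 ± 0.40. With slide in the model, Lamb3 was 0.63 higher in WT (limma adjusted p = 0.089) and 0.47 higher in TG (adjusted p = 0.186), so neither was called. A further Lama3 probe gave -0.52 ± 0.49 and -0.51 ± 0.53.

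**Figure D2:**
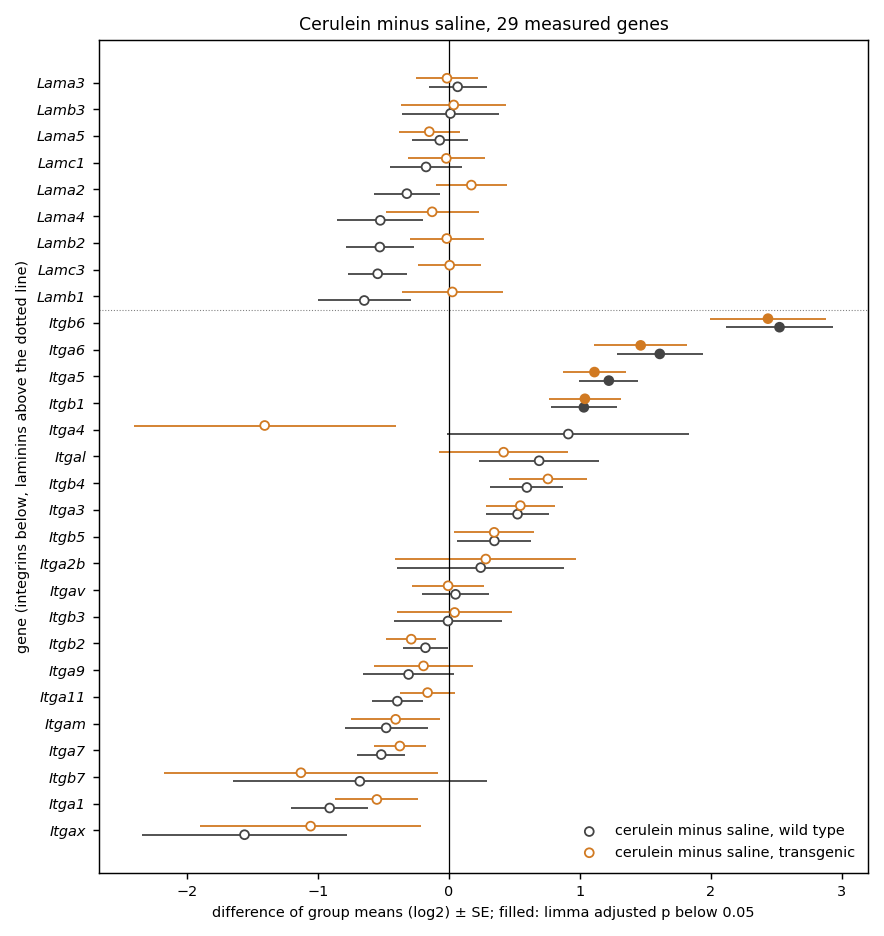
Difference of group means, cerulein minus saline (horizontal axis, log2), with SE bars, for the 29 measured genes (vertical axis; laminins above the dotted line, integrins below, each ordered by the wild type difference). Filled points have a limma adjusted p below 0.05. Itgb6, Itga6, Itga5 and Itgb1 are filled in both genotypes (the Itga5 difference turned slightly negative with normexp background correction), while most other points lie within 1 of 0.

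Several of these results changed when slide was added to the model. Slide and scan session cannot be told apart here. With slide as a term in the model, Itgb4 and Itgb5 were called higher in both genotypes. Itgb4, the hemidesmosomal partner of Itga6, differed by 1.04 in WT (limma adjusted p = 0.00341) and by 1.03 in TG (adjusted p = 0.00307), against 0.59 ± 0.28 and 0.76 ± 0.30 without that term (adjusted p = 0.162 and 0.152). Within slides 1 and 3 it was 1.01 and 1.20 in WT and 0.55 and 1.40 in TG. Itgb5, another partner of the alpha v chain, differed by 0.80 in WT (adjusted p = 0.0101) and 0.65 in TG (adjusted p = 0.0252), against 0.35 ± 0.28 and 0.34 ± 0.31 without it, and within slides 1 and 3 by 0.46 and 1.07 in WT and 0.30 and 1.00 in TG. Itga7, a laminin receptor chain of muscle, was called lower in WT with slide in the model (-0.48, adjusted p = 0.0384), against -0.52 ± 0.18 without it (adjusted p = 0.0705). Under that model 6 members were higher and 1 lower in WT and 6 were higher in TG, against backgrounds of 13.8% of genes higher and 7.79% lower in WT and 15.2% higher and 8.35% lower in TG.

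Other settings called more members lower. With normexp correction 3 members were higher and 3 lower in WT (Itga1, Itga7 and Itgax lower), against 5.33% and 13.1% of genes. With array weights 5 were higher and 5 lower in WT (Itga1, Itga11, Itgam, Lamb2 and Lamc3 lower), against 14.7% and 26.2% of genes, and 6 were higher and 3 lower in TG (Itga1, Itga4 and Itgam lower), against 18.3% and 26.2%.

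Itgav, the alpha v chain whose partners include the products of Itgb3, Itgb5, Itgb6 and Itgb8, was read differently by its probes. The brighter probe gave 0.05 ± 0.26 in WT and -0.01 ± 0.28 in TG, with overlapping groups. The dimmer one ranged from -4.78 to -3.11 in WT saline arrays and from -2.57 to -2.41 in WT cerulein arrays, and from -4.20 to -3.57 and from -3.06 to -2.48 in TG arrays. It was well above background on 3 of 4 WT and 2 of 3 TG saline arrays. It was called higher in both genotypes (single probes were called at a rate of 8.96% in WT and 5.9% in TG), by 1.32 ± 0.30 (limma adjusted p = 0.0137 over all kept probes) and 1.19 ± 0.33 (adjusted p = 0.0465). The part of the transcript that each probe reads was not determined here, and no direction is given for Itgav.

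The collagen receptor chains Itga1 and Itga11 did not pass the test. Itga1 ranged from -1.97 to -1.01 after saline and from -2.75 to -1.66 after cerulein in WT, a difference of -0.91 ± 0.30 (limma adjusted p = 0.0527), and was -0.55 ± 0.32 in TG. In WT it was called lower with normexp correction, the deposited log2 values, a mean-variance trend, probes above background on all arrays and array weights (-0.996 to -0.73, limma adjusted p of 0.00855 to 0.0483). It was also called lower there without WT saline replicate 5, WT cerulein replicate 9 or 10, or TG cerulein replicate 15 (-1.12 to -0.91, adjusted p of 0.0218 to 0.0497). On slide 1 alone the WT difference was 0.32 and on slide 3 it was -0.76. Itga11 was lower in each WT cerulein array (1.00 to 1.35) than in each WT saline array (1.45 to 1.84), at -0.40 ± 0.20 (adjusted p = 0.186). Itga3, a laminin receptor chain, differed by 0.52 ± 0.24 in WT and 0.54 ± 0.26 in TG (adjusted p = 0.16 and 0.247), and Itga9 by -0.31 ± 0.35 and -0.20 ± 0.38.

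The leukocyte integrins Itgal, Itgam, Itgax, Itgb2, Itga4 and Itgb7 were not called in either genotype. Itgb2, the beta chain that Itgal, Itgam and Itgax share, ranged from 0.15 to 0.60 in WT saline arrays and from 0.02 to 0.35 in WT cerulein arrays, and differed by -0.18 ± 0.18 in WT and -0.29 ± 0.19 in TG. Itgax differed by -1.56 ± 0.78 and -1.06 ± 0.85, and Itgb7 by -0.68 ± 0.97 and -1.13 ± 1.05. Itga4 gave opposite signs, 0.91 ± 0.93 in WT and -1.41 ± 1.00 in TG, and was not well above background on 2 WT saline arrays, on 1 WT cerulein array and on 1 TG cerulein array. These wide errors do not exclude differences of 1 log2 unit in Itgax, Itgb7 or Itga4. The probes of Itgam gave -0.48, -0.09 and 0.65 in WT, and those of Itgal gave 0.69 and -0.31, none of them called. The Itgam probe that was read had WT means of 6.01 after saline and 5.53 after cerulein. WT means of the other 2 Itgam probes lay between -1.83 and -1.18. The reason for this gap was not tested, and which probe measures Itgam was not determined.

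Among leukocyte markers, the summed level of 7 neutrophil markers was 110 to 197 after saline and 84.0 to 195 after cerulein in WT, and 153 to 209 and 92.6 to 196 in TG. Of these 7, 2 were called higher in WT cerulein arrays, against 5.64% of all genes: S100a8 and S100a9 (2.38 ± 0.69 and 2.85 ± 0.71, limma adjusted p = 0.0344 and 0.0166). None of the 7 separated the WT groups without overlap, and the list's median difference in WT was 0.19. In TG none of the 7 was called, with a median of 0.05. With slide in the model 1 was called lower in TG, against 8.35% of all genes. The sum of 7 macrophage and monocyte markers was 38.8 to 49.3 and 32.2 to 38.9 in WT, and 41.2 to 45.2 and 29.2 to 39.5 in TG. The platelet integrin chains Itga2b and Itgb3 differed by 0.24 ± 0.64 and -0.01 ± 0.41 in WT, and by 0.28 ± 0.69 and 0.04 ± 0.44 in TG. In whole tissue, fewer cells of a type and less RNA per cell cannot be told apart.

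The genes that act around integrins were read from lists and counted in the same fit. The lists were chosen with earlier results of these data known, so their counts describe these data and are no independent test. Of 37 measured focal adhesion adaptors and kinases, the proteins that tie integrin tails to actin and to signalling, 9 rose and none fell in WT, and 7 rose and none fell in TG, beside the shares of all genes called given above (5.64% higher in WT and 4.78% in TG). All 7 were among the 9. With slide in the model 16 were called higher in WT and 15 in TG, against 13.8% and 15.2% of genes, and none lower. They include Nedd9, a docking protein (3.38 ± 0.35 in WT and 3.04 ± 0.37 in TG), Vcl, which encodes vinculin (2.80 ± 0.31 and 2.63 ± 0.34), and Zyx, which encodes zyxin (2.76 ± 0.31 and 2.93 ± 0.34). The list's median was 0.19 in WT and 0.24 in TG, against -0.06 over all genes in each.

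Of 19 integrin activators and inactivators, Fermt2 and Kank1 rose in both genotypes and 1 gene fell in WT. Beside this list and that of membrane partners below, 5.64% of all genes were called higher and 8.35% lower in WT. In TG these shares were 4.78% and 3.41%. Fermt2 encodes a kindlin that binds beta tails together with talin (1.37 ± 0.29 and 1.38 ± 0.31), and Kank1 a talin-binding protein at the rim of adhesions (1.25 ± 0.30 and 1.38 ± 0.33). Another kindlin gene, Fermt1, fell in WT by 1.96 ± 0.46 (limma adjusted p = 0.0109), from a signal well above background on 3 of 4 saline arrays to 1 of 4, so that the size rests on signals near background. Of 14 membrane partners, Plaur, the urokinase receptor (1.81 ± 0.31 and 1.82 ± 0.34), and Cd9, a tetraspanin (1.5 ± 0.37 and 1.43 ± 0.40), rose in both genotypes, and Cd81 fell in WT (-1.03 ± 0.26).

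Of 25 extracellular ligands other than laminins, 3 rose in both genotypes and 1 fell in WT. Over all genes 5.64% were called higher and 8.35% lower in WT, and 4.78% and 3.41% in TG. Ccn1, a matricellular ligand of several integrins, differed by 4.36 ± 0.43 in WT and 4.12 ± 0.47 in TG, and Thbs1, which encodes thrombospondin, by 3.52 ± 0.43 and 3.03 ± 0.47. Ccn2 differed by 0.85 ± 0.19 and 1.10 ± 0.21, and Vtn, which encodes vitronectin, by -1.43 ± 0.29 in WT (limma adjusted p = 0.0048). Fn1, the fibronectin that the product of Itga5 binds, was at -0.66 ± 0.32 in WT and 0.14 ± 0.35 in TG and was not called. Of 11 cell surface ligands of leukocyte integrins, Cdh1, which encodes E-cadherin (2.27 ± 0.32 and 2.19 ± 0.35), and F11r, a junctional adhesion molecule (1.17 ± 0.29 and 1.32 ± 0.31), rose in both. Those 2 of 11 stand beside the same shares of all genes, and none of the 11 was called lower.

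Of 20 laminin receptors other than integrins, with the genes of hemidesmosomes, 2 rose and 3 fell in WT, and 1 rose and none fell in TG, against 5.64% of all genes higher and 8.35% lower in WT and 4.78% and 3.41% in TG. With slide in the model 5 were called higher and 2 lower in WT, against 13.8% and 7.79% of all genes. In TG 5 were higher and 3 lower under that model, against 15.2% and 8.35%. Sdc4, a heparan sulfate syndecan, rose in both (1.48 ± 0.23 and 1.60 ± 0.25). Dag1, dystroglycan itself, was at -0.77 ± 0.33 and -0.75 ± 0.35 and was not called. Of 21 other basement membrane components, none was called higher in either genotype, against 5.64% of all genes in WT and 4.78% in TG. Nid2 (-1.12 ± 0.29) and Smoc2 (-0.83 ± 0.25) fell in WT, with limma adjusted p = 0.0213 and 0.0379. These 2 of 21 are near the 8.35% of all genes called lower in WT. With slide in the model both calls were lost (-0.79 and -0.48, limma adjusted p = 0.0733 and 0.0821). Under that model 1 of 21 components, Col4a1, was called higher in TG (0.97, adjusted p = 0.0236), against 15.2% of all genes.

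None of these 9 measured laminin chains was called after cerulein in limma, at an adjusted p below 0.05. Their median difference was -0.32 in WT and -0.02 in TG, and Lamc3 in WT was the only one with an unadjusted p below that threshold. In WT the largest decreases not passing the test were those of Lamb1 (-0.65 ± 0.36), Lamc3 (-0.55 ± 0.22), Lamb2 (-0.53 ± 0.26) and Lama4 (-0.53 ± 0.33), with adjusted p of 0.116 to 0.288. Those values moved with slide: Lama4 was -2.87 and -2.47 in WT cerulein replicates 11 and 12, on slide 2, against -1.19 and -1.43 in replicates 9 and 10, and saline arrays lay between -1.61 and -1.14. Lamb2 was -1.58 and -1.52 in replicates 11 and 12 against -0.68 and -0.56 in replicates 9 and 10, and Lamb1 was 0.16 and 0.30 against 1.17 and 1.28. With slide in the model the differences were -0.12 for Lamb1, -0.34 for Lamc3, -0.12 for Lamb2 and -0.04 for Lama4, and the median over the 9 laminins was -0.04.

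**Figure D3:**
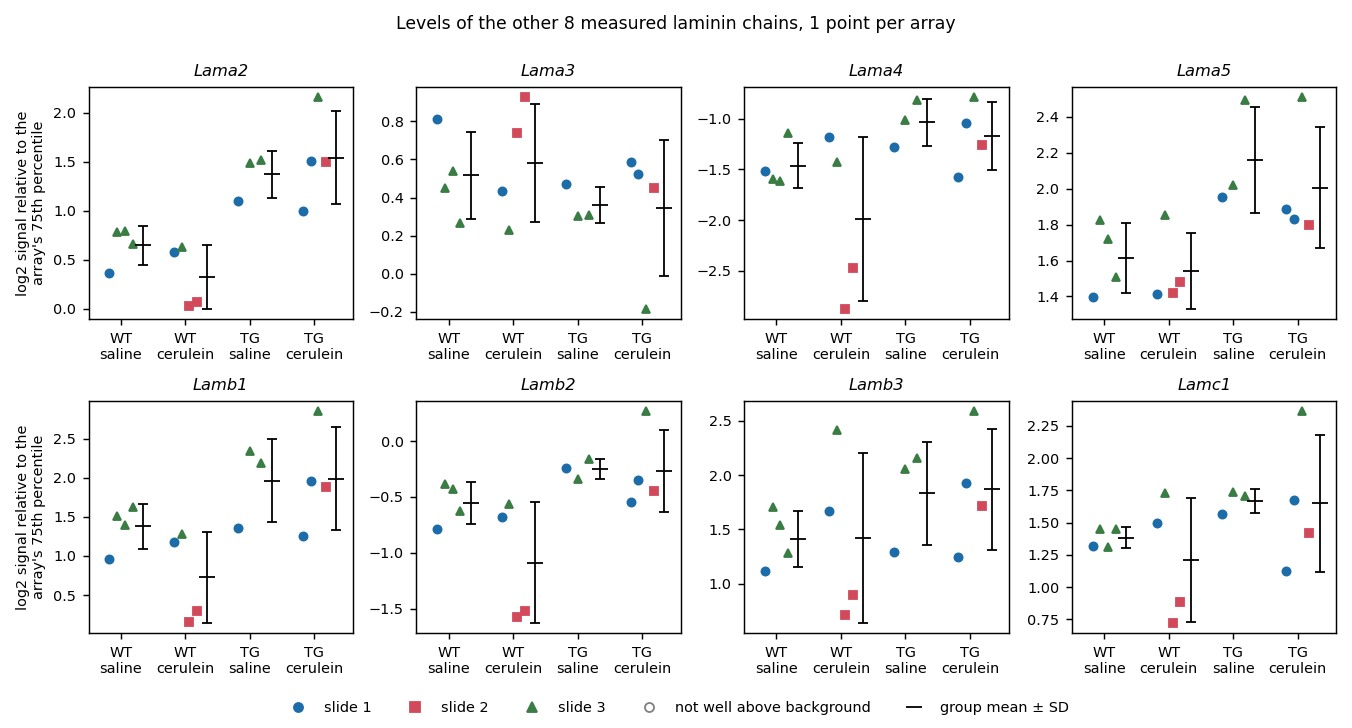
Level of the other 8 measured laminin chains, 1 point per array, as log2 signal relative to the array's 75th percentile (vertical axis), in the 4 groups (horizontal axis), with point shape for the slide and bars for the group mean ± SD. The slide 2 arrays of wild type cerulein mice, replicates 11 and 12, are the 2 lowest of their group for Lama2, Lama4, Lamb1, Lamb2, Lamb3 and Lamc1, and Lama2 is higher in each transgenic array than in any wild type array of the same treatment.

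The second question was how the transgenic pancreas differed from wild type in these genes. Lamc3, which encodes the third laminin gamma chain, was higher in transgenic mice after saline and after cerulein. In the main fit it was the only member called in either comparison. The background of calls was 0.075% of genes higher and 0.0% lower after saline, and 0.138% higher and 0.00577% lower after cerulein. Lamc3 was -3.06, -2.46, -2.93 and -2.91 in WT saline arrays and -1.64, -1.04 and -1.13 in TG saline arrays. After cerulein it was -3.11, -3.33, -3.44 and -3.68 in WT and -1.64, -1.20, -0.89 and -1.32 in TG. Each of the 7 TG arrays was above each of the 8 WT arrays, and Lamc3 was well above background on all 15.

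The Lamc3 difference, transgenic minus wild type, was 1.57 ± 0.24 after saline (2.97-fold, limma adjusted p = 0.0222) and 2.12 ± 0.22 after cerulein (4.35-fold, adjusted p = 0.000707). These comparisons share no array. Within slides it was 1.42 on slide 1 and 1.68 on slide 3 after saline (1.60, adjusted p = 0.00591, with slide in the model, which called 0.225% of genes higher and 0.00577% lower), and 1.69, 2.23 and 2.43 on slides 1, 2 and 3 after cerulein. The saline call was lost with median scaling (1.53, adjusted p = 0.345), quantile normalization (1.49, adjusted p = 0.133), normexp correction (0.709, adjusted p = 1.0), only the groups compared (adjusted p = 0.177) and without slide 2 (adjusted p = 0.0627), and without TG saline replicate 3 or 4 or WT saline replicate 5, 7 or 8 (1.46 to 1.55, adjusted p = 0.0856 to 0.192). The cerulein call was lost without slide 2 (1.97, adjusted p = 0.089), and with normexp correction the difference was smaller, at 1.01 (adjusted p = 0.0376).

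Lama2, which encodes the laminin alpha chain best known from muscle and peripheral nerve, did not pass the test, although its groups did not overlap under either treatment. Its level was 0.36, 0.78, 0.79 and 0.66 in WT and 1.10, 1.49 and 1.52 in TG after saline. After cerulein it was 0.58, 0.63, 0.02 and 0.07 in WT and 1.00, 1.51, 2.16 and 1.5 in TG. The difference was 0.72 ± 0.27 after saline (limma adjusted p = 1.0) and 1.22 ± 0.25 after cerulein (adjusted p = 0.102). With slide in the model, which called 0.513% of all genes higher and 0.144% lower, the cerulein difference was 1.18 (adjusted p = 0.00917), and it was also called with normexp correction, with quantile normalization and on the authors' deposited log2 values (adjusted p = 0.0277 to 0.0307). The 2 Lama2 probes ran the same way, at 0.87 ± 0.32 after saline and 1.61 ± 0.29 after cerulein for the dimmer one.

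The other laminin chains mostly lay higher in transgenic mice without passing the test. Of the 9 laminins, 8 had a positive difference under both treatments, against 38.1% of all genes, and Lama3 had a negative one in both (-0.16 ± 0.24 and -0.24 ± 0.22). The laminin median was 0.43 after saline and 0.82 after cerulein, beside 0.0036 and 0.10 over all genes. Lamb1, the beta chain found in most basement membranes, differed by 0.58 ± 0.39 after saline and 1.26 ± 0.36 after cerulein (limma adjusted p = 0.303 after cerulein, and 0.0449 with slide in the model). After cerulein, Lama4 differed by 0.82 ± 0.33, Lamb2 by 0.82 ± 0.26, Lama5 by 0.47 ± 0.22, Lamb3 by 0.45 ± 0.37 and Lamc1 by 0.44 ± 0.27. After saline, 5 of the 9 laminins (Lamc3, Lama2, Lama5, Lamb2 and Lamc1) were higher without overlap between the groups, against 4.41% of all genes, and after cerulein 3 (Lamc3, Lama2 and Lamb2), against 1.57%.

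The genotype difference in laminins after cerulein was uneven between slides. On slide 1, Lama4, Lamb3 and Lamc1 differed by -0.12, -0.08 and -0.09, against 1.42, 0.91 and 0.62 on slide 2 and 0.64, 0.18 and 0.64 on slide 3. Lamb1 differed by 0.43, 1.66 and 1.57 on slides 1, 2 and 3, and Lama2 by 0.67, 1.46 and 1.53.

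Markers of fibroblasts and stellate cells, a source of matrix in the pancreas, moved with the laminins. The summed linear level of 9 such markers was 61.8 to 92.2 in WT saline arrays and 100 to 177 in TG saline arrays, and 44.8 to 92.1 in WT and 121 to 247 in TG after cerulein. The TG arrays lay above the WT arrays under both treatments. After cerulein 3 of the 9 markers were called higher in TG, against 0.138% of all genes. They were Col1a1 (2.51 ± 0.46), Col1a2 (1.91 ± 0.34) and Lum (2.54 ± 0.39), with limma adjusted p of 0.0133 to 0.0467. After saline none of the 9 was called. With slide in the model 6 of the 9 were called higher after cerulein, against 0.513% of all genes, and 2 after saline, against 0.225%. Other marker lists also lay higher in TG. The sum of 8 duct markers was 5.29 to 8.44 in WT and 8.72 to 11.1 in TG after saline, without overlap, and the groups overlapped after cerulein. The sum of 6 platelet markers was 1.60 to 2.35 and 2.52 to 3.03 after saline, also without overlap, and 1.85 to 2.62 and 2.31 to 4.33 after cerulein. Of 8 islet markers, 7 had a positive difference after saline and 8 after cerulein, with medians of 0.53 and 0.56. Of 7 neutrophil markers 7 and 5 had one, with medians of 1.06 and 0.79. Over all genes 50.7% had a positive difference after saline and 60.7% after cerulein, with medians of 0.0036 and 0.098. The part of these lists in the laminin differences was not tested. The sum of 8 endothelial markers was 118 to 176 in WT and 93.9 to 161 in TG after saline, and 64.6 to 129 and 38.7 to 92.7 after cerulein. The sum of 4 smooth muscle markers was 19.7 to 29.4 and 18.4 to 28.4 after saline, and 15.9 to 30.2 and 17.2 to 24.0 after cerulein, with Lmod1 well above background on no array.

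**Figure D4:**
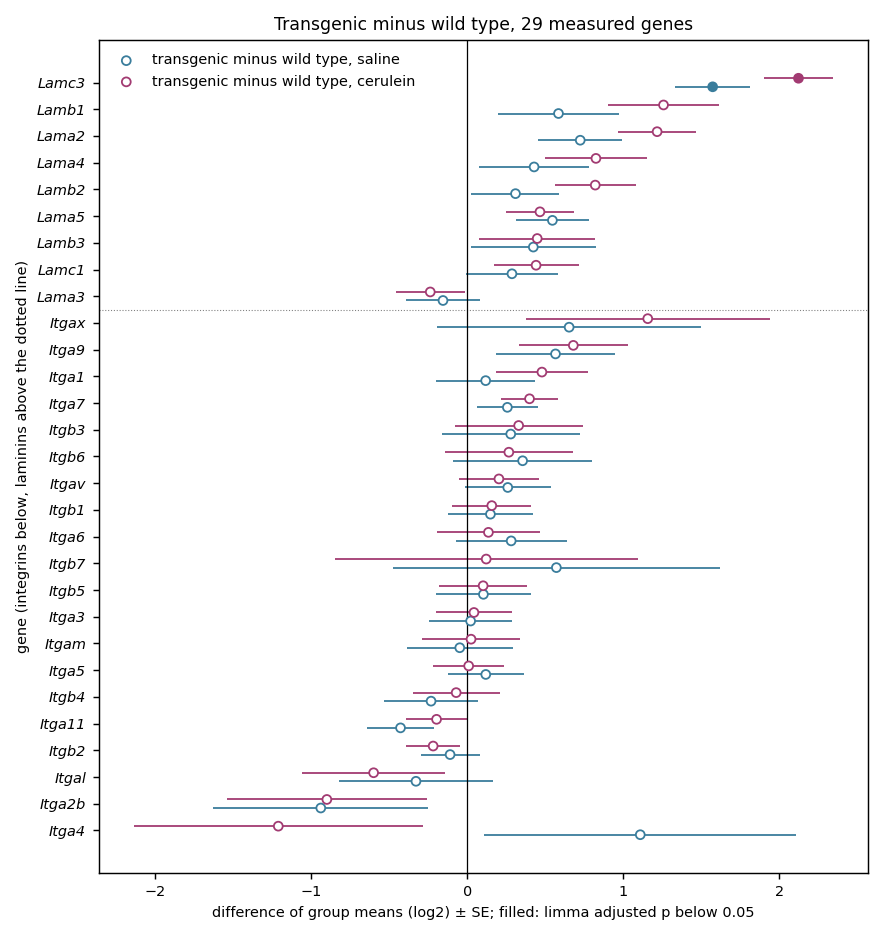
Difference of group means, transgenic minus wild type (horizontal axis, log2), with SE bars, after saline and after cerulein, for the 29 measured genes (vertical axis; laminins above the dotted line, integrins below, each ordered by the difference after cerulein). Filled points have a limma adjusted p below 0.05. Lamc3 is filled in both comparisons, 8 of 9 laminins lie to the right of 0 in both, and the integrins lie on both sides.

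No integrin was called between the genotypes in the main fit. With array weights Itga11 was called lower in TG after saline (-0.63, limma adjusted p = 0.012). That setting called 402 of 17338 genes higher and 161 lower. The main fit gave -0.43 ± 0.21 for Itga11. Of the 20 measured, 13 had a positive difference under both treatments, against 38.1% of all genes, and their median was 0.13 after saline and 0.11 after cerulein. The 4 integrins that rose with cerulein differed little between genotypes after it: 0.27 ± 0.41 for Itgb6, 0.13 ± 0.33 for Itga6, 0.01 ± 0.23 for Itga5 and 0.16 ± 0.25 for Itgb1. Itgb4 was lower in each TG saline array (2.55 to 2.63) than in each WT saline array (2.69 to 3.16), at -0.23 ± 0.30, the only member lower without overlap there, against 2.21% of genes. Itga7 was the only integrin higher without overlap there, at -0.79 to -0.57 in TG against -1.14 to -0.81 in WT, a difference of 0.26 ± 0.20. After cerulein no member was lower without overlap, against 0.94% of genes. Among the ligands, Postn, which encodes periostin (3.26 ± 0.49, limma adjusted p = 0.0126), and Ccn2 (1.15 ± 0.19, adjusted p = 0.0259) were called higher in TG after cerulein. These are 2 of 25 in that list, against 0.138% of all genes called higher. Among other basement membrane components 1 of 21 was called higher, against the same 0.138% of all genes. This was Frem1, which was well above background on 3 of 4 TG and on no WT cerulein array. It was at least 2.44-fold higher in TG, the measured TG mean set against the lowest signal among probes well above background on the WT arrays (adjusted p = 0.0197).

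The third question was whether the cerulein response differed between genotypes. No member was called in limma's test of that difference, and none had an unadjusted p below 0.05, against 0.773% of all genes. Over all genes 0.0% were called, and 1 gene, 0.00577%, was called lower with slide in the model. The lowest p was that of Itga4 (-2.32 ± 1.36, transgenic response minus wild type response, limma adjusted p = 1.0). The responses of the 4 integrins differed by -0.09 ± 0.61 for Itgb6, -0.15 ± 0.48 for Itga6, -0.11 ± 0.33 for Itga5 and 0.01 ± 0.37 for Itgb1. That of Lamc3 differed by 0.55 ± 0.33.

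The members that did not pass the filter were near or below background on nearly all arrays. Itgb8 and Lama1 were well above background on none of the 15 arrays, and Itga2, the collagen receptor chain of epithelium and platelets, on WT cerulein replicate 9 alone. Itga8 was well above background on 1 WT and 1 TG cerulein array, and Itgad on 1 WT saline and 1 WT cerulein array. No difference is given for these 5 genes. Of the 34 genes 10 had several probes, and 8 of the measured ones had several that passed the filter; for each gene the brightest was read.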

How the data were processed

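RNA of 15 pancreases, 1 per array, was measured on Agilent arrays in 1 colour. Per the file headers, the authors extracted each spot's fluorescence intensity, background subtracted within the array, using version 10.7.3.1 of Agilent's Feature Extraction. The deposited flag columns (another kind of value, 0 or 1 per spot) mark outliers and spots well above background. The authors' deposited series table of log2 values had correlations of 0.987 to 0.998 with the scanner signals, taken across probes, and column medians of 6.56 to 6.93 and was used only as an alternative. The method of its between-array normalization is not given in the sources used here.

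Processed signals were put on the log2 scale and each array's 75th percentile was subtracted. No spot was saturated, and 105 to 188 outlier spots per array were left out. Accessions were named through a RefSeq table (27235 of 55681 probes named by 1 symbol, 28446 by none). Probes well above background on at least 3 arrays were kept, and the brightest was read for each of 17338 genes. limma 3.58.1 (R 4.3.3) fitted 4 group means to all 15 arrays with no covariate, and p-values were adjusted over all genes by Benjamini-Hochberg, with calls at 0.05. The fit was run on simulated data with independent noise for each array and no slide differences. That run could not show how the fit behaves where arrays of a slide resemble each other. The number of arrays limits the precision. The labels number the animals separately. Without a slide term, the p-values of the main fit measure a spread in which differences between animals and between slides are mixed. With slide as a random block, the fitted correlation of arrays within a slide was 0.67 over all genes.

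Alternatives were normexp background correction (offset 50), quantile and median scaling, the deposited log2 values, other probe filters and rules, slide as a term or block, leaving out slide 2, array weights, a mean-variance trend, only the groups compared and leaving out each array. The scanner output used here holds no mean signal, so normexp used the median signal. Fitting each kept probe on its own was added after seeing the data. The members and gene lists were chosen with earlier results of these data known. Some genes of the rule and lists are not reported here and are left out of the counts, though not of the fit. Each member may be named, and of each list the called genes with the largest changes, at most 3 in each direction. Genes named beyond that rule (Fn1, Dag1, Col4a1, the markers of fibroblasts and neutrophils) were chosen after their values were seen. Promoter windows come from RefSeq on GRCm38.p6. The file headers name another build for the array, and no positions on it are used.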

Additional observations from a re-analysis of the deposited data

Results flagged for a closer look

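In 5 of the 87 groups of 4 arrays tested (29 genes in the 3 groups with 4 arrays), 1 array stood apart from the others by Dixon's criterion of 0.829 for the gap over the range. Chance gives about 1 in 20. Itga11 was 0.997 in WT cerulein replicate 11, against 1.34 to 1.36. Lama5 was 2.51 in TG cerulein replicate 15, against 1.80 to 1.89, and 1.85 in WT cerulein replicate 10, against 1.41 to 1.48. Itga3 was -1.11 in TG cerulein replicate 15, against -0.62 to -0.54. Itgb4 was 3.16 in WT saline replicate 6, against 2.70 in the others. Replicate 11 was on slide 2 and replicates 6, 10 and 15 were on slide 3. Their part in these values was not tested beyond the fits that left them out.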

How the results depend on the processing

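No paired analysis was possible because the groups compared share no replicate number. For cerulein against saline in wild type, 4 members were called; median scaling gave 1, slide in the model 7, slide as a random block 7 and array weights 10 (5 of them lower), and leaving out 1 array gave 4 to 6. In transgenic mice 4 were called; median scaling gave 1, probes above background on all 15 arrays 2, array weights 9 (3 lower) and only the groups compared 2, and leaving out 1 array gave 2 to 4. For transgenic against wild type after saline, 1 was called. Normexp correction, quantile normalization, median scaling, leaving out slide 2 and only the groups compared each gave 0. Array weights gave 3 (1 of them lower), and leaving out 1 array gave 0 to 1. After cerulein 1 was called; normexp correction, quantile normalization and the deposited log2 values each gave 2, slide in the model 3, slide as a random block 3 and leaving out slide 2 gave 0, and leaving out 1 array gave 1 to 2. For the difference between responses 0 were called, also with each array left out. Itga5 turned with normexp correction to -0.112 in wild type and -0.0172 in transgenic mice; the cause was not tested. Over all genes, normexp correction moved the wild type calls from 977 higher and 1448 lower to 924 and 2269, and median scaling moved the transgenic calls from 4.78% of genes higher and 3.41% lower to 385 and 173 genes. The median of all genes shifted to -0.25 with median scaling and -0.23 with normexp correction in wild type, from -0.06. Signal over background limits Itgb6 and Itga5, which were not well above background on 3 of the 7 saline arrays (Itgb6) and on 5 of the 7 (Itga5).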
